A study of Gossypium hirsutum with 12 samples.

Results

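The comparison described here is that of well-watered cotton root tips at 48 h with well-watered root tips at 24 h, without any stress (WW48/WW24). It uses 6 of the 12 libraries of the study, the 3 of WW48 and the 3 of WW24, each taken from the deposited read counts by the condition and replicate in its label. Seedlings of upland cotton, *Gossypium hirsutum* cv. AU90810, grew in darkness in well-watered vermiculite (-0.02 MPa), and the apical 12 mm of the primary root, which holds the whole elongation zone, was cut at 24 h or at 48 h after transplanting. The other 6 libraries come from the apical 6 mm of roots in drier vermiculite (-1 MPa) at 24 h (WS24) and 48 h (WS48), and they enter below only through the shared estimate of spread and in 1 comparison. All groups share the genotype, the darkness and the lack of added water after transplanting. Each library is a pool of tips from several seedlings, and according to the study each replicate is from an independent experiment. Well-watered roots served the study as the controls for root length (24 h) and for age (48 h), so that WW48/WW24 measures how far those controls differ from each other.

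A root tip is a gradient of cell ages. Cells divide near the apex, elongate behind it while expansins, xyloglucan enzymes and pectin enzymes remodel their walls, and then mature, when root hairs emerge and vessels of the xylem lay down secondary walls. In those walls lignin is formed from monolignols, whose rings are methylated by O-methyltransferases and which are polymerised by laccases and class III peroxidases. A tip cut at a fixed length holds more or less of the maturing part according to how long the growing zone is.

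Read counts in genes ranged from 8132845 to 11316010 in the WW24 libraries and from 6433993 to 11142643 in the WW48 libraries. One library stood apart before any comparison was made. Replicate 2 of WW24 differed from replicates 1 and 3 by a chi-square per degree of freedom of 32.3 and 30.6, against 3.16 between those replicates and 7.83 to 11.6 among the WW48 libraries. In a principal component analysis of the 6 libraries the first component, with 55.4% of the variance, placed WW24 replicates 1 and 3 at -124 and -97.4 and the WW48 libraries at 46.1 to 123. WW24 replicate 2 lay between them at 5.0, and it alone was low on the second component (27.2% of the variance), at -131. It was the highest of the 6 libraries in 25.7% and the lowest in 26.2% of the 43938 genes tested. WW48 replicate 2, the shallowest library, was the highest in 24.9%. The share of counts in the 10 genes with the most reads was 2.95% in WW24 replicate 2 and 1.97% to 2.56% in the other 5.

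Between 24 h and 48 h, 1553 transcripts rose and 553 fell in the edgeR quasi-likelihood fit of all 12 libraries, which is 3.53% and 1.26% of the genes tested (4.79% in all), where a call needed an adjusted p of at most 0.05 and a change of 1 or more on the log2 scale. The median size of the called changes was 2.19 for rises and 1.28 for falls on the log2 scale, and 281 rises but 4 falls exceeded 4 on that scale. The 3 WW48 libraries lay above the 3 WW24 libraries in 1505 of the 1553 rises and below them in 536 of the 553 falls, where 12.2% and 11.2% of all genes tested had their groups apart in these directions. With libraries scaled by total counts alone, the median change over all genes moved from 0.00 to 0.13 on the log2 scale, and 86.9% of calls were rises against 73.7% with TMM. The count of calls depended on single libraries. Without WW24 replicate 2 it was 4359 rises (9.66%) and 840 falls (1.86%). Without WW24 replicate 1 or 3 the rises numbered 655 and 555, and without WW48 replicate 2 there were 489 rises and 250 falls. Of all these calls, 419 rises (0.954%) and 190 falls (0.432%) were also made in each of the 6 fits that left out 1 well-watered library, and they are called stable below. Counts of list members below stand against 3.53% of all genes higher and 1.26% lower with 12 libraries, and 9.66% and 1.86% without WW24 replicate 2. The shares cover only members that passed a filter on low counts, which a rise helps a gene near 0 at 24 h to pass.

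**Figure D1:**
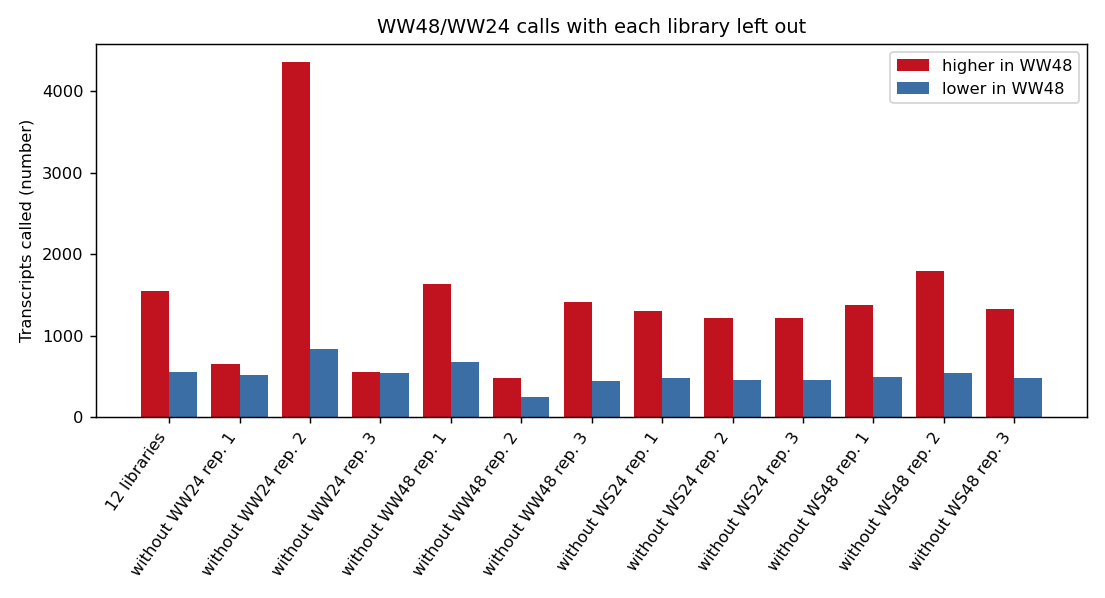
Number of transcripts called higher (red) and lower (blue) in WW48 than in WW24, in the fit of all 12 libraries and in the fits that left out 1 library each (x axis). Rises number 1553 with 12 libraries, 4359 without WW24 replicate 2 and 489 without WW48 replicate 2.

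Among transcripts with a known function the leading rises were in a glycosyl hydrolase, O-methyltransferases, NAC transcription factors, glutathione S-transferases and branched-chain amino acid transaminases, many of them at under 1 CPM (counts scaled to a common library size) at 24 h. A glycosyl hydrolase, Gh_D09G0637, of a superfamily of enzymes that cleave sugar bonds, was at 0, 0.288 and 0.0920 CPM in WW24 replicates 1 to 3 and at 8.66, 93.1 and 52.8 CPM in WW48. Only 3 reads in all were counted at 24 h against 1296 at 48 h, a CPM ratio of 405 with an exact 95% interval of 138 to 1968 that covers counting error only, and the rise was stable (adjusted p = 0.0104 in edgeR). WW24 replicate 2 lay with its group for this gene.

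O-methyltransferases, which add methyl groups to phenolic precursors of lignin and of related compounds, held 3 of the 12 leading places. Gh_A11G2625 went from 0, 0.288 and 0 CPM at 24 h to 9.48, 50.5 and 13.2 CPM at 48 h. Its 2 and 572 reads give a ratio of 268 (exact 95% interval 73.9 to 2221, counting error only; adjusted p = 0.0267 in edgeR). The groups did not overlap, but the call was lost without WW24 replicate 1, WW24 replicate 3 or WW48 replicate 2, with adjusted p-values above 0.05 there. Gh_D02G1849 was at 0, 0 and 0.0920 CPM at 24 h and at 4.12, 12.5 and 1.91 CPM at 48 h, 1 read against 143 (ratio 134, interval 23.7 to 5335). Its neighbour Gh_D02G1850 went from 0, 0.576 and 0 to 2.68, 7.38 and 1.13 CPM, a log2 fold change of 4.39 (SE 1.09, n = 3 per group, adjusted p = 0.0298 in edgeR). Both lost the call without the same 3 libraries, and which of these neighbouring copies a read came from was not tested.

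Among the 20 O-methyltransferases that come from the ortholog table alone, 8 passed the filter on low counts and all 8 were called higher. A gene near 0 at 24 h passes that filter only where other libraries hold its reads, so this share is a description. Gh_A03G2147, singled out after its values were seen because it was the 1 stable call of the 8, was at 22.2, 11.9 and 21.9 CPM in WW24 and at 57.2, 86.8 and 48.5 CPM in WW48 (log2 fold change 1.77). In this gene WW24 replicate 2 was the lowest library of the 6, not the one nearest to WW48. The 14 genes of the lignin and lignan list that the study had picked on these libraries, which hold further O-methyltransferases and the hydroxylases and dirigent proteins of the same route, gave 0 calls in either direction in edgeR with 12 libraries, where 2 had a positive change at an unadjusted p under 0.05. DESeq2 called 1 of the 14 higher, and edgeR 6 without WW24 replicate 2.

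Tau-class glutathione S-transferases, which attach glutathione to reactive compounds, gave 5 rises among the 5 of 9 listed genes that passed the filter on low counts, which is again a description because a rise helps a gene to pass. Gh_D09G1520 stood at 43.9, 253 and 77.8 CPM at 24 h and at 951, 1339 and 726 CPM at 48 h, a log2 fold change of 3.01 (SE 0.58, n = 3 per group, adjusted p = 0.0105 in edgeR). This rise was stable, and WW24 replicate 2, at 253 CPM, was above the other WW24 libraries but below each WW48 library. The 3 consecutive IDs Gh_A09G1508 to Gh_A09G1510 rose as well. Gh_A09G1509 was at 59.6, 220 and 74.6 and then at 643, 1282 and 636 CPM (log2 fold change 2.85, SE 0.72). Gh_A09G1508 went from 2.57, 10.1 and 3.40 to 17.2, 84.0 and 28.6 CPM, and Gh_A09G1510 from 0.490, 0.863 and 0.184 to 7.11, 20.9 and 35.3 CPM. All 4 carry the name glutathione S-transferase TAU 8, so that near-identical copies may share reads. The last 3 were not stable. The fifth member tested, Gh_D13G1617 (TAU 19), passed with 12 libraries but not without WW24 replicate 2.

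Transcription factors of the NAC family named as activated by AP3/PI, of which the Arabidopsis namesake is known for leaf senescence, rose at 4 loci. Gh_D12G2767 was at 0.123, 0.144 and 0.0920 CPM at 24 h and at 4.22, 8.15 and 5.05 CPM at 48 h, 3 reads against 152 (ratio 47.5, exact 95% interval 16.0 to 233, counting error only), and was stable (adjusted p = 0.00163 in edgeR). Gh_A12G1505 went from 0.736, 0.432 and 0.736 to 1.85, 14.6 and 6.79 CPM. Gh_A03G0887 and Gh_D02G1270 had log2 fold changes of 3.44 (SE 0.89) and 3.00 (SE 0.82), with 34.2 and 41.4 CPM in WW48 replicate 2 against 2.37 to 10.3 CPM in the other WW48 libraries. In both genes WW24 replicate 2, at 2.88 and 4.89 CPM, was above the lowest WW48 library, so the groups overlapped. Of 39 NAC genes listed 18 passed the filter on low counts. Of these 18, 4 rose (22.2% against 3.53% of all genes) and 0 fell, and 7 rose without WW24 replicate 2 (9.66% of all genes there). This is again a description, because a rise helps a gene to pass. The 4 rises were among the 14 tested members from the ortholog table alone. The 4 members that the study had picked gave 0 calls.

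**Figure D2:**
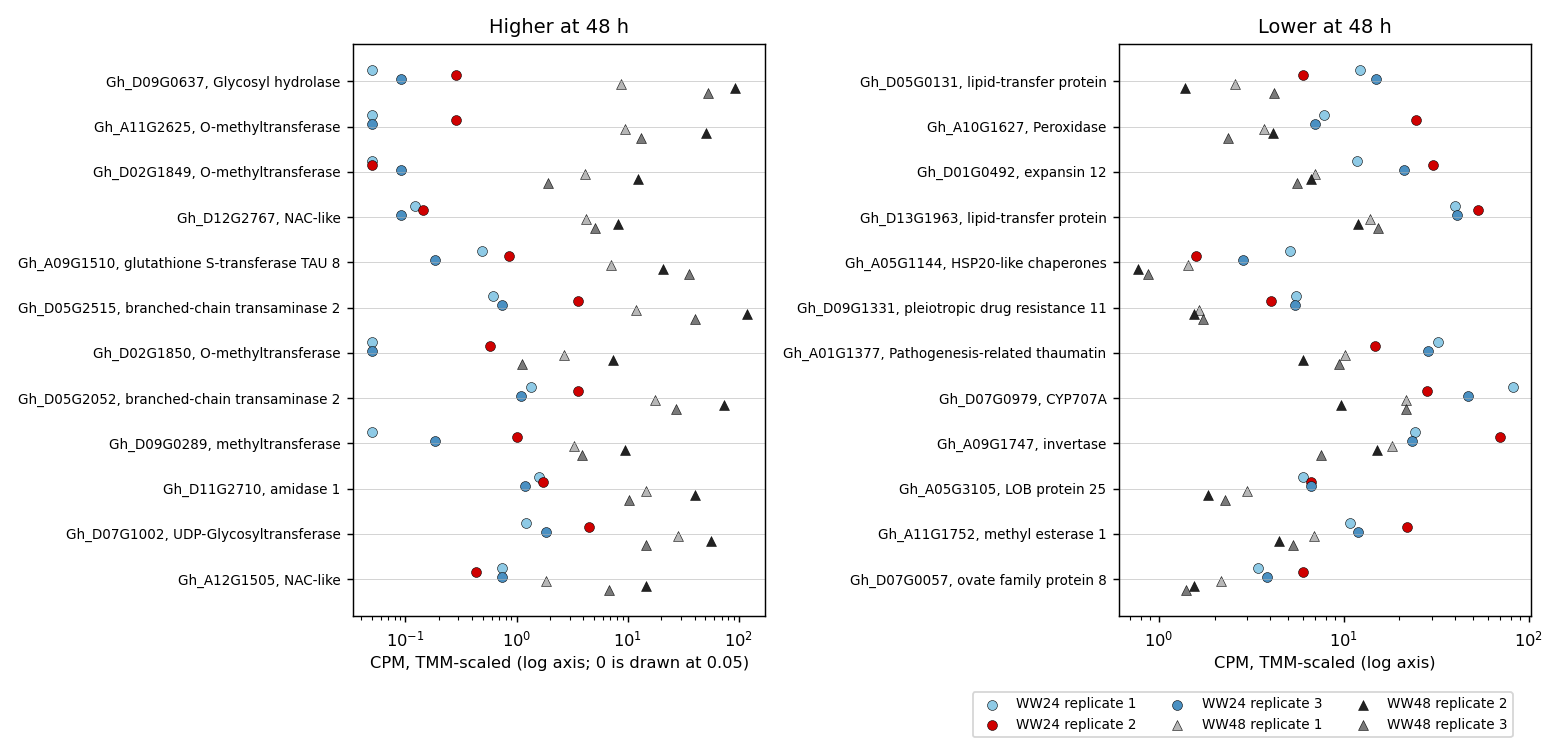
TMM-scaled CPM (log axis) of the 12 rises and 12 falls with the largest log2 fold change among transcripts with a function, in each well-watered library; circles are WW24 and triangles WW48, with WW24 replicate 2 in red. The 24 were chosen among transcripts whose groups do not overlap, and WW24 replicate 2 (3.60 CPM in Gh_D05G2515, against 0.613 and 0.736) is in several the WW24 library nearest to WW48.

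Further stable rises were of genes with separate functions. Both branched-chain amino acid transaminase 2 genes, whose products act in the turnover of leucine, isoleucine and valine, were stable. Gh_D05G2515 went from 0.613, 3.60 and 0.736 to 12.0, 118 and 40.6 CPM (log2 fold change 5.19, SE 0.86, n = 3 per group, adjusted p = 0.00573 in edgeR), and Gh_D05G2052 from 1.35, 3.60 and 1.1 to 17.5, 74.3 and 27.4 CPM (4.35, SE 0.63). Amidase 1, which in Arabidopsis can release auxin from indole-3-acetamide, was at 1.59, 1.73 and 1.20 CPM and then at 14.6, 40.3 and 10.2 CPM (Gh_D11G2710, log2 fold change 3.84, SE 0.51). WW24 replicate 2 lay with its group in this gene. Indoleacetic acid-induced protein 16, of the family of auxin-response repressors, rose from 0.613, 0.288 and 0.276 to 2.99, 4.92 and 4.0 CPM (Gh_D08G2503, log2 fold change 3.30, SE 0.35, adjusted p = 0.000888 in edgeR) and was stable. It was the 1 call among 9 auxin genes tested (11.1% against 3.53% of all genes), and 3 rose without WW24 replicate 2 (9.66% of all genes there). A UDP-glycosyltransferase, of enzymes that attach sugars to small molecules, went from 1.23, 4.46 and 1.84 to 28.4, 56.0 and 14.7 CPM (Gh_D07G1002, stable), and UDP-glucosyl transferase 85A2 from 5.27, 1.87 and 5.06 to 12.3, 8.31 and 12.6 CPM (Gh_D13G0523, stable). They were the 2 calls among 21 such genes (9.52% against 3.53% of all genes). Without WW24 replicate 2 there were 2 rises and 2 falls, and DESeq2 gave 5 rises and 1 fall.

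Class III peroxidases moved in both directions. Of 23 tested, 6 rose (26.1%, beside 3.53% of all genes) and 2 fell (8.70%, beside 1.26%). Without WW24 replicate 2, 11 rose and 2 fell (9.66% and 1.86% of all genes there). Gh_D04G1506 was at 2.33, 4.89 and 2.67 CPM in WW24 and at 25.8, 19.4 and 16.6 CPM in WW48 (log2 fold change 2.66, SE 0.30, n = 3 per group, adjusted p = 0.00108 in edgeR), the 1 stable member. Gh_D04G1593 went from 4.54, 24.5 and 7.82 to 69.1, 95.2 and 44.7 CPM, with WW24 replicate 2 well above its group. Gh_A10G1317 and Gh_D08G2420 rose by 2.39 (SE 0.46) and 2.23 (SE 0.55). In the other direction, Gh_A10G1627 went from 7.85, 24.5 and 6.99 to 3.71, 4.15 and 2.35 CPM. Here WW24 replicate 2 lay farther from WW48 than its group did, and the log2 fold change was -1.95 (SE 0.44) with it and -1.18 without it. The study itself had chosen 20 of the 23 from the same libraries.

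The transcripts that fell included genes listed as lipid transfer proteins. Some, Gh_D13G1963 and Gh_D05G0131 among them, carry the name of a superfamily that also holds bifunctional inhibitors and seed storage 2S albumins. The list gave 8 falls and 0 rises among 27 tested (29.6% against 1.26% of all genes), and 10 falls and 1 rise without WW24 replicate 2. The summed level of the list was 6141 to 6989 CPM in WW24 and 2877 to 4334 CPM in WW48. Gh_A11G0233, the one with the highest CPM of those named, was at 1349, 1096 and 1229 CPM and then at 623, 409 and 605 CPM (log2 fold change -1.17, SE 0.19, n = 3 per group, adjusted p = 0.00522 in edgeR). Its neighbour Gh_A11G0234 went from 900, 643 and 826 to 393, 256 and 418 CPM. Both calls were lost only without WW48 replicate 2. Gh_D13G1963 fell from 39.7, 53.1 and 40.7 to 13.8, 12.0 and 15.3 CPM (log2 fold change -1.69, SE 0.19) and was stable, and Gh_D05G0131 from 12.3, 6.04 and 14.9 to 2.58, 1.38 and 4.18 CPM. In the list as a whole WW24 replicate 2 lay at 6141 CPM, with the other WW24 libraries at 6358 and 6989 CPM and apart from WW48.

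Wall-loosening genes gave fewer calls. Of 41 pectin enzymes tested 4 fell and 0 rose (9.76% against 1.26% of all genes), 7 fell and 2 rose without WW24 replicate 2, and none of the 4 was stable. Pectin lyase-like Gh_D11G1400 was at 111, 79.9 and 120 CPM at 24 h and at 53.8, 46.2 and 54.0 CPM at 48 h, a log2 fold change of -1.02 (SE 0.16, n = 3 per group, adjusted p = 0.00494 in edgeR). Gh_A09G1803 and Gh_D09G1925 fell by 1.17 and 1.11 on the log2 scale, and the pectate lyase Gh_A12G2658 by 1.19. Expansin 12, the 1 call among 12 expansins (8.33% against 1.26% of all genes), was at 11.8, 30.5 and 21.2 CPM and then at 7.01, 6.62 and 5.57 CPM (Gh_D01G0492, log2 fold change -1.73, SE 0.42, adjusted p = 0.0284 in edgeR), and lost the call without WW24 replicate 3 or any 1 of the WW48 libraries. Of 12 xyloglucan enzymes 0 passed in edgeR (3 at an unadjusted p under 0.05, 2 of them with a positive change), 1 rose in DESeq2 and 3 rose in edgeR without WW24 replicate 2. Their summed level was 1145 and 1549 CPM in WW24 replicates 1 and 3, 4630 CPM in replicate 2 and 1496 to 2572 CPM in WW48, so that replicate 2 stood above all other libraries.

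Other falls were spread over several functions. Pleiotropic drug resistance 11, an ABC transporter, was at 5.52, 4.03 and 5.43 and then at 1.65, 1.54 and 1.74 CPM (Gh_D09G1331, log2 fold change -1.59, SE 0.28, n = 3 per group, adjusted p = 0.00685 in edgeR; stable), with groups far apart. A thaumatin-like protein of the pathogenesis-related class fell from 32.2, 14.8 and 28.6 to 10.1, 6.00 and 9.40 CPM (Gh_A01G1377, stable), while another, Gh_A11G0393, rose from 1.96, 5.32 and 2.21 to 5.15, 17.7 and 7.83 CPM with overlapping groups. LOB domain-containing protein 25, of a plant family of transcription factors, went from 6.01, 6.62 and 6.62 to 2.99, 1.85 and 2.26 CPM (Gh_A05G3105, stable), and methyl esterase 1 from 10.8, 22.0 and 11.9 to 6.90, 4.46 and 5.31 CPM (Gh_A11G1752, stable). Ovate family protein 8 (Gh_D07G0057) and an HSP20-like chaperone (Gh_A05G1144) fell by 1.37 and 1.61 on the log2 scale and were not stable.

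Abscisic acid genes, which the study followed under stress, gave 2 calls between the watered ages. Of 42 tested 1 rose and 1 fell (2.38% each, beside 3.53% and 1.26% of all genes), none of them stable, while 4 rose and 1 fell without WW24 replicate 2 and 3 rose and 1 fell in DESeq2. The fall was a CYP707A2 gene, of the hydroxylases that inactivate abscisic acid. It went from 81.9, 28.2 and 46.9 to 21.7, 9.69 and 21.6 CPM (Gh_D07G0979, log2 fold change -1.55, SE 0.36, n = 3 per group, adjusted p = 0.0233 in edgeR). WW24 replicate 2 was the WW24 library nearest to WW48, and the call was lost without WW24 replicate 1 or 3 or WW48 replicate 2. The rise was a copy of nine-cis-epoxycarotenoid dioxygenase 3, the rate-limiting enzyme of abscisic acid synthesis, named after its values were seen. Gh_D13G1614 was at 0.245, 0.144 and 0.0920 CPM and then at 0.309, 1.69 and 0.870 CPM (4 reads against 24, log2 fold change 2.44, SE 0.68, n = 3 per group, adjusted p = 0.0452 in edgeR), and its call was lost without WW24 replicate 1 or 3 or WW48 replicate 2 or 3. Its copy on the A subgenome was at 0, 0.576 and 0 CPM and then at 0.618, 2.31 and 0.783 CPM (Gh_A13G1311), with an adjusted p of 0.0624 in edgeR with 12 libraries and 0.00274 without WW24 replicate 2. Related genes that were not called went otherwise. Nine-cis-epoxycarotenoid dioxygenase 5 had log2 fold changes of -1.29 (Gh_A06G2014) and -1.10 (Gh_D06G1506). CYP707A3 had -0.08 (Gh_A08G1344) and -0.27 (Gh_D08G1639).

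Transport and storage genes gave rises. Of 51 mineral and nitrogen transport genes 6 rose and 0 fell (11.8% against 3.53% of all genes), 14 and 1 without WW24 replicate 2. A heavy metal transport protein, Gh_D06G1722, was at 2.45, 57.3 and 19.2 CPM in WW24 and at 264, 144 and 197 CPM in WW48 (log2 fold change 2.95, SE 0.68, n = 3 per group, adjusted p = 0.0213 in edgeR). Nitrate transporter 1:2 went from 0, 2.16 and 0.644 to 8.76, 5.23 and 5.83 CPM (Gh_A05G1715), and phosphate 1, which in Arabidopsis loads phosphate into the xylem, from 4.90, 9.06 and 4.51 to 15.8, 33.8 and 12.1 CPM (Gh_A10G0984). Each of the 3 lost the call without at least 2 of the well-watered libraries. Seed imbibition genes, of the raffinose synthase family, gave the 3 rises among 27 starch, raffinose and trehalose genes, the largest in Gh_A12G1687 (log2 fold change 2.16, SE 0.47). None of the 3 was stable. The share was 11.1% against 3.53% of all genes, and 6 of the 27 rose without WW24 replicate 2 (9.66% of all genes there). Of 28 sugar and EamA or MtN3 carriers 2 rose (7.14% against 3.53% of all genes), Gh_A05G3754 by 2.5 and Gh_A11G3026 by 1.12 on the log2 scale. Neither was stable, and without WW24 replicate 2, 12 rose (9.66% of all genes there). Of 108 protein kinases 7 rose and 1 fell (6.48% and 0.926%, beside 3.53% and 1.26% of all genes), and 23 rose and 3 fell without it (9.66% and 1.86% of all genes there). Leucine-rich receptor-like kinase Gh_D01G0369 (5.39, 16.7 and 9.93, then 41.1, 41.5 and 27.0 CPM) and the kinase Gh_D11G2149 were stable rises.

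Of the 553 falls 141 were lost without WW24 replicate 2, and 3 of the named genes were among them. An invertase, which splits sucrose, was at 24.3, 70.2 and 23.3 and then at 18.2, 15.1 and 7.57 CPM (Gh_A09G1747). Chitinase A went from 90.1, 182 and 76.0 to 65.6, 56.0 and 48.7 CPM (Gh_D08G1052), and the aquaporin NOD26-like intrinsic protein 4;2 from 23.3, 49.5 and 21.5 to 16.2, 12.3 and 15.1 CPM (Gh_D11G0733). Replicate 2 was the highest of the 6 libraries in all 3. With 12 libraries their log2 fold changes were -1.53, -1.03 and -1.10, and without it -0.84, -0.57 and -0.63, short of the fold threshold. All 3 calls were also lost without WW48 replicate 2 or WW48 replicate 3.

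Markers of tissues within the tip were examined next. In RNA from whole tips, fewer cells of a type and less RNA per cell cannot be told apart. Nearly all marker genes had been chosen by the study from the same libraries for their response to stress. Of 12 xylem and secondary wall genes 0 were called in edgeR with 12 libraries (3 had a positive change at an unadjusted p under 0.05, and DESeq2 called 1 higher) and 7 rose without WW24 replicate 2 (9.66% of all genes there). The median log2 fold change of the list was 0.38 and 1.23, beside 0.00 and 0.02 over all genes. The summed level was 255, 1051 and 353 CPM in WW24 replicates 1 to 3 and 1084, 1459 and 773 CPM in WW48, so the sum of WW24 replicate 2 lay within the WW48 range. Most of each sum came from the laccase 14 genes Gh_A05G2114, Gh_A05G2115 and Gh_D05G2355, at 204, 313 and 160 CPM in WW24 replicate 2. WW24 replicate 1 was the lowest of the 6 libraries in all 12 genes. Replicate 2 was the highest in 7, none of them laccase 14, so the sum does not stand for most of the list.

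The xylem genes did not all follow the same order. Laccase 14 was at 26.6, 160 and 48.7 CPM in WW24 and at 283, 544 and 226 CPM in WW48 (Gh_D05G2355), with replicate 2 between its group and WW48. The log2 fold change was 2.17 (SE 0.67, n = 3 per group, adjusted p = 0.0635 in edgeR) and 3.18 without replicate 2 (adjusted p = 0.00241 in edgeR). Laccase 14 Gh_A05G2114 was at 37.4, 204 and 53.3 and then at 315, 412 and 222 CPM. In laccase 11, by contrast, replicate 2 was far above both groups, at 63.5 CPM against 10.9 and 19.0 CPM in WW24 and 15.8 to 20.6 CPM in WW48 (Gh_D13G0253), and the gene passed in neither fit. The same order held for laccase 7 Gh_A04G0744, at 66.5 CPM in replicate 2 and at 9.19 to 20 CPM in the other 5 libraries.

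Of the other markers, 1 of 7 phloem genes rose (14.3% against 3.53% of all genes), phloem protein 2-A13 (Gh_A12G2603, from 0.981, 1.44 and 1.1 to 3.40, 22.2 and 7.66 CPM). Its call was lost without WW24 replicate 1 or 3 or WW48 replicate 2. The summed phloem level was 239, 541 and 272 CPM in WW24 and 304 to 425 CPM in WW48. Of 5 root hair genes 0 passed in edgeR with or without WW24 replicate 2 and 0 in DESeq2, with 1 positive and 1 negative change at an unadjusted p under 0.05. Their sum was 606 CPM in WW24 replicate 2 against 194 and 233 CPM in replicates 1 and 3 and 255 to 415 CPM in WW48, most of it from root hair specific 18 (Gh_D05G0807, 545 CPM in replicate 2). Root cap 1 (Gh_D11G2295) was at 0.719 CPM in replicate 2 and at 2.00 to 2.58 CPM in the other 5 libraries.

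The 12 genes of dividing cells summed to 486 to 609 CPM in WW24 and to 405 to 459 CPM in WW48. Of these 12 genes 0 were called in edgeR with 12 libraries (2 had a negative change at an unadjusted p under 0.05, and DESeq2 called 1 lower). Tubulin beta 8, a subunit of microtubules, came closest, at 100, 85.6 and 102 CPM and then at 52.0, 40.6 and 52.1 CPM (Gh_D03G1454), a log2 fold change of -0.99 that missed the fold threshold (SE 0.15, n = 3 per group, adjusted p = 0.00386 in edgeR), and it was the 1 fall of the list without WW24 replicate 2. Replicate 2 was the highest library in 5 of the 12 and the lowest in 6. It was highest in microtubule-associated protein 65-8 (Gh_A03G1102, 174 CPM against 57.9 to 106) and lowest in CYCLIN D1;1 (Gh_D13G2534, 0.288 CPM against 1.03 to 2.26) and in a histone gene (Gh_D10G0496, 5.90 CPM against 7.08 to 14.8). Of 4 genes of photosynthetic tissue 0 were called in edgeR with or without WW24 replicate 2 and 0 in DESeq2. Their sum was 42.4 to 69.8 CPM in WW24 and 26.2 to 36.4 CPM in WW48. Photosystem I subunit E-2 had 1 read in WW24 and 1 in WW48 (Gh_A11G1245), while the Rubisco small chain Gh_D03G1402 was at 24.0 to 67.5 CPM, highest in WW24 replicate 2. The part of these marker levels in the calls was not tested.

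**Figure D3:**
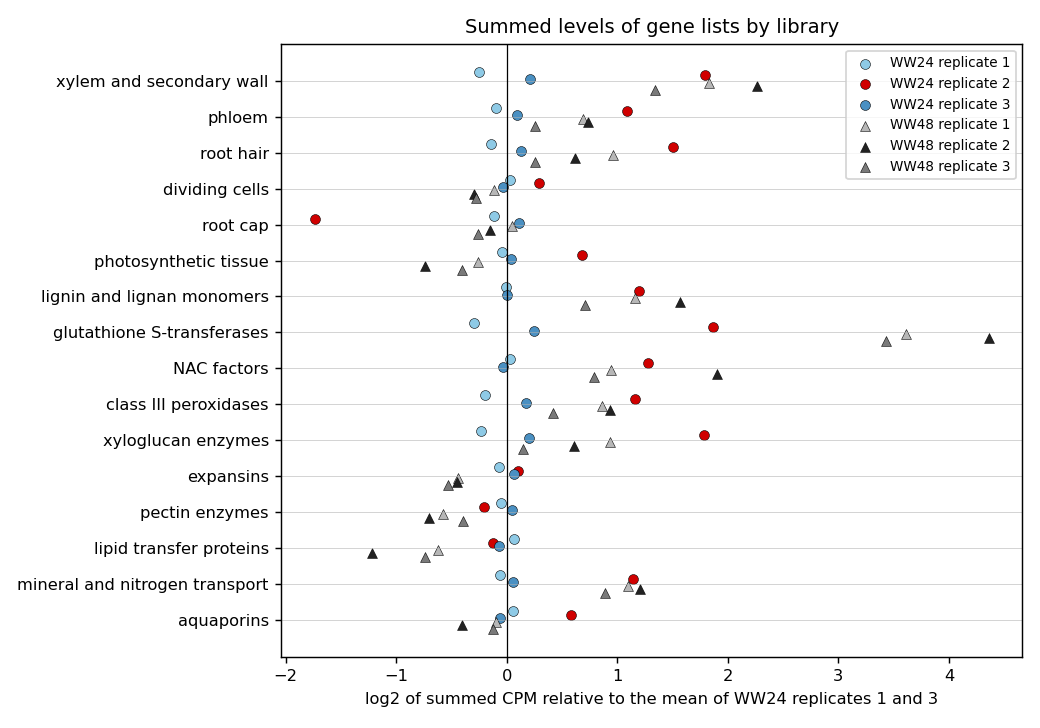
Summed CPM of 16 gene lists in each well-watered library, as log2 of the ratio to the mean of WW24 replicates 1 and 3 (x axis); circles are WW24 and triangles WW48, with WW24 replicate 2 in red. For xylem the red point (1051 CPM) lies among the WW48 libraries (773 to 1459 CPM), for root hair (606 CPM) and xyloglucan genes (4630 CPM) it lies above them, and for lipid transfer proteins (6141 CPM) it lies with WW24.

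How far WW24 replicate 2 lay from its group was measured on genes called without it. For each library in turn, genes were called without it, and its level was placed on a scale where 0 is the mean of the rest of its group and 1 the mean of the other age. The left-out library still had a part in the filter on low counts. The libraries that set 0 and 1 also chose the genes for lying far apart, which tends to place a left-out library above 0. On the 4159 rises called without it and tested with 12 libraries, WW24 replicate 2 had a median position of 0.73 (quartiles 0.42 and 1.02) and was nearer to WW48 in 69.2% of them. WW24 replicates 1 and 3 lay at -0.10 and -0.02 on their own 641 and 543 rises, and the WW48 libraries at 0.31, -0.42 and 0.27. For WW24 replicates 1 and 3, replicate 2 was part of the mean placed at 0 and of the choice of genes. Their positions, on rises and on falls, are therefore not a like comparison with those of replicate 2. On falls WW24 replicate 2 lay at 0.48, with quartiles of -0.02 and 0.97, and the other WW24 libraries at 0.25 and 0.27. By its median the library labelled as 24 h was thus between the ages for rises, with an upper quartile of 1.02 beyond WW48. For falls it spread widely from gene to gene. WW48 replicate 2, at -0.42, lay beyond its own group, away from WW24.

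**Figure D4:**
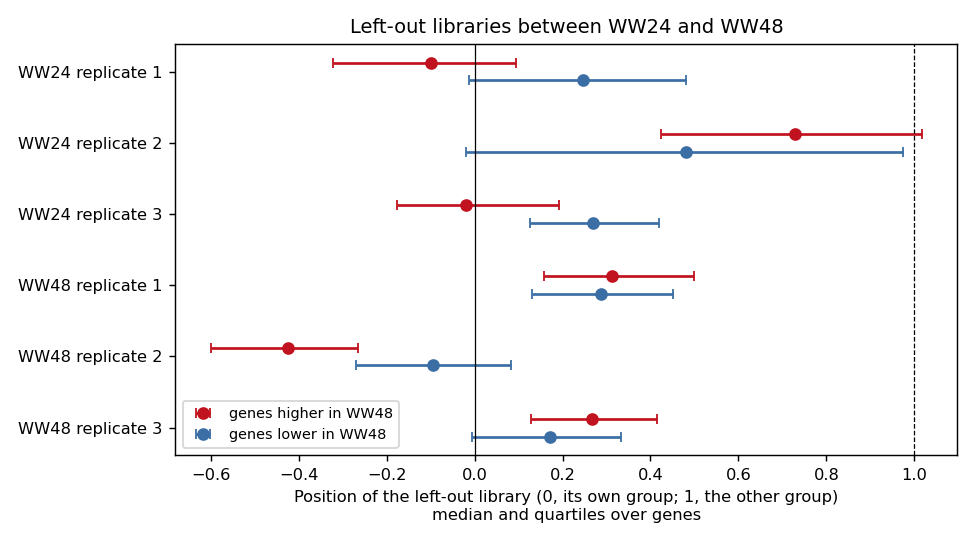
Position of each well-watered library between its own group (0) and the other age (1), on genes called without that library (red, higher in WW48; blue, lower in WW48); points are medians over genes and bars the quartiles. WW24 replicate 2 has a median of 0.73 on rises, and WW48 replicate 2 of -0.42.

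Leaving WW24 replicate 2 out acted on both the size and the spread of the changes. The median over genes of the SD of log2 CPM was 0.39 in WW24 with 3 libraries, 0.15 in WW24 replicates 1 and 3, 0.26 in WW48, and 0.17 and 0.18 in WS24 and WS48. The square root of the common dispersion, which is about the coefficient of variation between replicates, was 0.227 for the 12 libraries and 0.168 without replicate 2. Of the 2861 rises gained without it, 2661 had been tested with 12 libraries. Of those, 1219 had missed only the adjusted p, 71 only the fold threshold and 1371 both. Their median log2 fold change was 0.96 (median SE 0.46) with 12 libraries and 1.60 (median SE 0.37) without it. Because the 12 libraries share 1 estimate of spread, the 24 h to 48 h comparison of stressed tips, in which the library has no part, also went from 56 rises and 112 falls to 832 and 382.

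The calls of both fits were compared gene by gene. Of the 1553 rises 1498 (96.5%) were also called without it, which is 34.4% of the 4359 called there. Of the 553 falls 412 (74.5%) were, which is 49.0% of the 840 called there. In the rises called with 12 libraries replicate 2 was the highest WW24 library in 74.8%, against 46.5% of all genes tested. In the falls it was the highest, and so the farthest from WW48, in 57.1%. WW48 replicate 2 was the highest WW48 library in 87.1% of the rises, against 39.1% of all genes. With both of these libraries left out, an alternative added after the data were seen, 3087 rises and 599 falls were called.

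**Figure D5:**
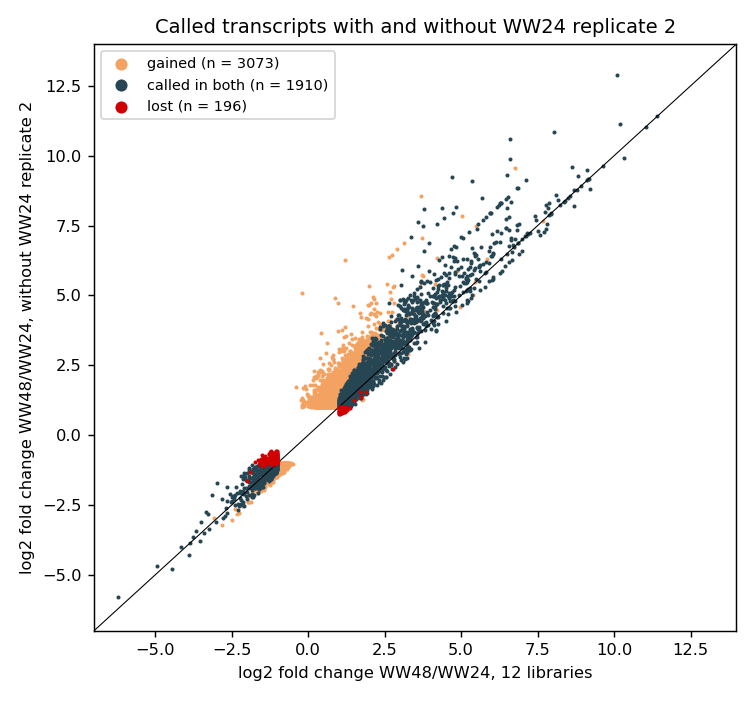
log2 fold change WW48/WW24 with 12 libraries (x axis) and without WW24 replicate 2 (y axis) for each transcript called in both fits, gained without the library or lost without it and tested in both. The line marks equal values, and most gained rises lie above it (median 0.96 with and 1.60 without the library).

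Most transcripts gained without WW24 replicate 2 had a replicate 2 unlike its group, which the rule of their choice favours. A transcript could also be gained through the lower shared spread or, if not tested with 12 libraries, through the filter. Their median position for that library was 0.92 for the 2661 rises and 0.97 for the 412 falls tested in both fits, given as a description. The methyltransferase Gh_D10G1857 had 0 reads in the 3 WW24 libraries and 41 in WW48, at least 12.8-fold higher against a floor of 3 reads over the group. It was too low to be tested with 12 libraries. A protein kinase, Gh_A11G1522, went from 0.245, 1.44 and 0.0920 to 2.37, 2.92 and 1.57 CPM, and phloem protein 2-B11 (Gh_D09G1934) from 0.123, 0.719 and 0.276 to 2.16, 4.77 and 0.957 CPM. An integrase-type DNA-binding protein, of a transcription factor family, was at 3.68, 0.719 and 2.94 and then at 1.55, 0.923 and 0.870 CPM (Gh_A11G0697), so that replicate 2 was lower than every WW48 library.

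The same age step in stressed tips shares no library with WW48/WW24, but same-numbered libraries may come from the same experiment. Deviations from group means of same-numbered WW48 and WS48 libraries correlated at 0.26, 0.24 and 0.003 over genes. Those of other WW48 and WS48 pairs correlated at -0.34 to 0.20. The part of this in the shared direction was not tested. There 56 transcripts rose (0.127%) and 112 fell (0.255%). Of the 1553 watered rises, 1317 (84.8%) had a positive change in stressed tips, beside 59.7% of all genes with a positive change in watered tips. The median log2 fold change of those rises was 2.19 in watered and 0.78 in stressed tips, and 14 of them were called higher there. On these rises WS48 replicates 1 to 3 had median positions of 0.27, 0.55 and 0.27, from 0 at WW24 to 1 at WW48. WS48 replicate 2 was thus nearest to WW48, and its part in the shared direction was not tested. All genes with a positive change had a median of 0.36 in watered tips, so the 59.7% covers smaller changes. Of the 553 falls 493 (89.2%) had a negative change, beside 59.6% of all such genes, with medians of -1.28 and -0.54, and 44 were called lower. All genes with a negative change had a median of -0.28 in watered tips. On the falls the WS48 positions were 0.38, 0.54 and 0.43. The test of the difference between the age changes called 0 genes in edgeR (lowest adjusted p 0.0664, with 5160 genes at an unadjusted p under 0.05). DESeq2 called 399, and edgeR called 1657 without WW24 replicate 2. Lengths of the tips differ between watered and stressed roots, so tissue makeup and stress cannot be told apart in that difference.

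Single genes showed how this difference stood. PDR11 (Gh_D09G1331) fell in stressed tips too, by 2.20 on the log2 scale (adjusted p = 0.00458 in edgeR) against 1.59 in watered tips. Amidase 1 (Gh_D11G2710) had a log2 fold change of 0.12 in stressed and 3.84 in watered tips, with an adjusted p of 0.23 for the difference in edgeR. The stressed value rests on few reads, at 0.654, 0.192 and 0.203 CPM in WS24 and 0.288, 0.536 and 0.318 CPM in WS48. IAA16 (Gh_D08G2503), at 0.61 and 3.30, had the lowest adjusted p for the difference of the genes named here with 12 libraries, 0.0720 in edgeR.

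Many stable calls were of genes without a function in the tables. The stable rises with the highest CPM among them were Gh_D13G2157, at 20, 20 and 13.2 CPM and then at 234, 870 and 315 CPM (log2 fold change 4.74, SE 0.69, n = 3 per group, adjusted p = 0.00364 in edgeR), and Gh_D04G1736, at 10.5, 52.7 and 17.3 and then at 393, 723 and 254 CPM. The stable falls with the highest CPM were Gh_A11G0432, at 2245, 1880 and 2037 and then at 1158, 699.7 and 829 CPM, and Gh_D05G0859, at 1355, 1357 and 1171 and then at 364, 298 and 434 CPM (log2 fold change -1.83, SE 0.20, adjusted p = 0.000888 in edgeR). In Gh_D05G0859 and Gh_D13G2157 WW24 replicate 2 lay with its group, at positions of -0.06 and 0.06, and in Gh_D04G1736 at 0.40. Of the stable calls 26 of 419 rises and 6 of 190 falls had a function in the tables.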

How the data were processed

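Root tip RNA was measured by single-end Illumina sequencing in 12 libraries, 3 in each of 4 groups. The authors aligned the reads to the upland cotton genome NAU-NBT, and the submitters' processing notes name HISAT2 1.0 and HTSeq 0.6.1. They deposited whole-number read counts for 70477 genes, 6433993 to 11316010 per library, and 4 lines that name no gene, which held 31.2% to 39.1% of the reads and entered neither library sizes nor tests. The TMM-normalized values that the authors deposited as well, a score rounded to whole numbers, were not used. Whether counting used the strand is not stated in the sources used here, so reads of antisense genes cannot be told apart, and near-identical copies can share reads.

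Tests were run on the counts with edgeR 4.0.16 under R 4.3.3. The default filter (a minimum count of 10 and a total of 15) left 43938 genes. Libraries were scaled by TMM, and CPM are counts relative to the scaled library size. The 4 group means were fitted in 1 quasi-likelihood model of all 12 libraries with Benjamini-Hochberg adjustment over all genes, and calls follow the study's cut-offs (adjusted p of at most 0.05, a change of 1 or more on the log2 scale). The standard error (SE) is the log2 fold change divided by the square root of F. Checked on simulated data for WW48/WW24 with 43387 genes, the procedure recovered 53.7%, 73.1% and 90.9% of changes of 1.5, 2 and 3 on the log2 scale, with 9 false calls.

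Functions of 1766 genes came from the study's tables. Of these, 1353 had been chosen by the study on these libraries for their response to water stress, and 413 come from an ortholog table held only in part. Lists were formed by words in the functions. Named were the 12 higher and 12 lower calls with a function, a mean of at least 1 CPM, no overlap between groups and the largest changes, up to 4 called members of each list, all marker genes, the 2 higher and 2 lower stable calls without a function with the highest CPM, and the 5 higher and 5 lower calls gained without WW24 replicate 2 with the largest changes there. Some of them are given only within counts. Members, lists and tests were chosen with earlier results of these data known. Alternatives were DESeq2 1.42.0, limma-voom (limma 3.58.1) with and without quality weights, a robust prior, other scalings, filters and thresholds, the well-watered libraries alone, the replicate block and each library left out.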

Additional observations from a re-analysis of the deposited data

How the results depend on the processing

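A value called in an alternative had the opposite sign to that with 12 libraries in 1 named gene. The laccase Gh_D04G1243, not called with 12 libraries (log2 fold change -0.08), was a rise of 1.03 with the replicate block without WW24 replicate 2, of 1.11 with replicate 2 of the 4 groups left out and of 1.11 with replicate 2 of WW24 and WW48 left out, all 3 chosen after seeing the data; replicate 2 of WW24 was its highest library. Across named genes and alternatives, 2834 values kept their side of the thresholds, 383 lost a call and 120 gained one. The 12 positions of the libraries moved by less than their spread at an adjusted p of 0.01.

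Rises (1553) and falls (553) moved by over 1.5 times as follows. Quality weights in limma-voom gave 3952 rises, the 6 well-watered libraries alone 303 rises and 92 falls, these without WW24 replicate 2 3846 rises, glmTreat 158 and 33, and an adjusted p of 0.01 gave 382 and 244. The adjusted p alone gave 1895 falls and scaling by library size 343. Leaving out 1 library gave 489 to 4359 rises and 250 to 840 falls. Without WW24 replicate 2, the replicate block gave 3747 rises. Leaving out replicate 2 of all 4 groups gave 3482 and of WW24 and WW48 3087. DESeq2 gave 2016 rises and 718 falls and the count of calls stayed within 1.5 times there. The difference between the age changes, 0 calls with 12 libraries, had 9 when scaled by library size, 399 in DESeq2, 1925 with quality weights, 22 without a filter, 0 to 1657 with 1 library left out, 1099 with the block without WW24 replicate 2, and 1523 and 1091 with replicate 2 of 4 groups or of WW24 and WW48 left out.

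The replicate block gave 2024 rises and 528 falls with 12 libraries. With the well-watered libraries alone it gave 1502 and 268, against 303 and 92 without the block. The numbers were not taken to pair the libraries, since the labels name nothing shared and not every pair correlated above 0.1. Replicates came from independent experiments, so same-numbered libraries may share 1, and the correlations cannot decide this. Deviations of same-numbered WW24 and WW48 libraries correlated at -0.02, 0.38 and 0.33 over genes, and WW24 replicate 1 correlated best with WW48 replicate 3 (0.39).

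With 3 libraries a side, 1 of which stands apart, the list of calls rests on how WW24 replicate 2 is treated, and the cause of its place was not tested. The quality weight of that library in limma-voom was 0.131, against 0.516 to 2.58 for the others. The simulated data held no such library. Genes at a few CPM rest on few reads in WW48 replicate 2, the shallowest library, which was also the highest WW48 library in 87.1% of the rises.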

Other observations

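Upland cotton is a tetraploid with an A and a D subgenome. Of 21274 genes tested on A chromosomes 754 rose (3.54%) and 276 fell (1.30%), and of 22018 on D chromosomes 768 rose (3.49%) and 265 fell (1.20%). Genes of unplaced scaffolds gave 31 rises and 12 falls among 646. Where the function tables hold exactly 1 gene of a name on an A chromosome and 1 on the D chromosome of the same number, 258 such sets were tested, of which 32 held a call. Both members were called in the same direction in 9 and in opposite directions in 0. In 20 of the other 23 the member that was not called had the same sign, beside 195 of all 258 sets. Reads shared between near-identical copies can bring such members together, and this was not tested.

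Some called genes lay side by side. Of 992 rises whose next ID was tested, 99 (9.98%) had a rise there, beside 3.35% of all genes, and of 367 falls 22 (5.99%) had a fall, beside 1.30%. The O-methyltransferases Gh_D02G1849 to Gh_D02G1851, the TAU 8 glutathione S-transferases Gh_A09G1508 to Gh_A09G1510 and the lipid transfer proteins Gh_A11G0233 and Gh_A11G0234 are runs of this kind. IDs next to each other often belong to duplicated genes, which can share reads.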
